A study of Mus musculus with 15 samples.

Results

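The 9 iron-handling genes described here were followed in mouse bone marrow-derived macrophages (BMDMs): Hamp (hepcidin), Slc40a1 (ferroportin), Tfrc, Steap3, Slc11a2, Slc11a1, Fth1, Ftl1 and Ireb2. They were chosen by name for their roles in iron metabolism and make up 9 of the 51763 genes in the count table. All 9 were among the 16919 genes tested, although Hamp passed the filter on low counts only through the LPS and LPS/IFNγ libraries. The BMDMs came from wild-type female C57BL/6NTac mice 8 to 10 weeks old and were grown from bone marrow in M-CSF. They were then kept for 24 h with PBS (the control), 5 µg/mL fully reduced HMGB1 (frHMGB1), 5 µg/mL disulphide HMGB1 (dsHMGB1), LPS alone, or LPS with 20 ng/mL IFNγ (LPS/IFNγ, the classical M1 stimulation). HMGB1 is a nuclear protein that acts as an alarm signal outside the cell, and it exists in redox forms. LPS is a bacterial cell wall component. LPS alone was used at 1 µg/mL. The dose of LPS in LPS/IFNγ was labelled 1 µg/mL in one field and 100 ng/mL in another, and the methods of the study give 100 ng/mL. The LPS and LPS/IFNγ doses may therefore differ, and IFNγ and LPS dose cannot be told apart in comparisons of LPS/IFNγ with LPS. The study asked how the HMGB1 redox forms polarise macrophages compared with LPS and with M1 stimulation. Each condition had 3 libraries. The cells of 5 mice were pooled before seeding, so the libraries are technical replicates, and every p-value below measures only the spread between such libraries.

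Macrophages recycle the iron of old red blood cells and return it to plasma through ferroportin, the only known iron exporter of mammalian cells. Hepcidin, a peptide hormone made mainly by the liver, binds ferroportin and causes its degradation, and inflammation raises hepcidin through IL-6 and STAT3 while bone morphogenetic proteins raise it through SMAD factors. Inside the cell, iron that is not used is stored in ferritin, a shell of heavy (Fth1) and light (Ftl1) chains. When iron is scarce, the iron regulatory proteins Aco1 and Ireb2 bind hairpins called iron-responsive elements. Binding in a 5′ UTR blocks translation and binding in a 3′ UTR protects the transcript, so that part of this control does not change transcript levels and cannot be read from counts.

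The hepcidin promoter is shown because Hamp had the largest change of the 9 genes. The 250 bases before the transcription start are given for Hamp (chr7:30944030-30944279) and its neighbouring copy Hamp2 (chr7:30924182-30924431), both on the minus strand of GRCm38.p6 and taken from RefSeq. Capitals mark the STAT-type motif TTCNNNGAA and the BMP-responsive type motif GGCGCC, each of which reads the same on both strands, and the 2 do not overlap here.
Hamp: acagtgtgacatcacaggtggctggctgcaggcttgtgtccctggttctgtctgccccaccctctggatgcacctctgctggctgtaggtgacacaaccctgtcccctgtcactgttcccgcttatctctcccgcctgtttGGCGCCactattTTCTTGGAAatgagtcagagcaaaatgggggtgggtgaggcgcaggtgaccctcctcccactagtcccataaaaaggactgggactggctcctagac
Hamp2: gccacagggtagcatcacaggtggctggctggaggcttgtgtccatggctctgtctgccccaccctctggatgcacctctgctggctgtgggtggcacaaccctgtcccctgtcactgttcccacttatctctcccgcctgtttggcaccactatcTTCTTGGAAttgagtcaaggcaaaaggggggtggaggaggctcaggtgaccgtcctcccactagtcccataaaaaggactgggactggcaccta
In Hamp the STAT-type motif starts 97 bases before the start site and GGCGCC starts 109 bases before it. In Hamp2 the STAT-type motif starts 94 bases before the start site, and the letters GGCGCC are not in this window. The GENCODE M21 model of Hamp2 spans chr7:30922372-30924681 and holds this window, so the Hamp2 positions apply to the RefSeq start only. Of 32841 mouse promoter windows of the same length, 7.02% held TTCNNNGAA, 9.59% held GGCGCC and 0.368% held both. The 2 windows were 89.7% identical. Among the other members with an entry, 1 of 2 Tfrc windows held GGCGCC and no window held TTCNNNGAA.

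Iron-responsive elements are shown because a strict search for their pattern matched 4 of the 9 genes. The search took a loop of CAGTG and then A, C or T (capitals) above 5 paired bases and a bulged C. G-T pairs were accepted, and the GENCODE M21 transcripts of GRCm38 were searched.
Fth1, 5′ UTR (chr19:9982733-9982759, plus strand): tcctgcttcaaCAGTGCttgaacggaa
Ftl1, 5′ UTR (chr7:45459780-45459806, minus strand): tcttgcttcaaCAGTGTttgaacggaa
Slc40a1, 5′ UTR (chr1:45925466-45925492, minus strand): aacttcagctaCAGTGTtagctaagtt
Tfrc, 3′ UTR (chr16:32631220-32631246, plus strand): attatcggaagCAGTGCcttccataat
Tfrc, 3′ UTR (chr16:32631599-32631625, plus strand): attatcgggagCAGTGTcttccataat
Tfrc, 3′ UTR (chr16:32631664-32631690, plus strand): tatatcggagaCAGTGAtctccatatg
Tfrc, 3′ UTR (chr16:32631711-32631737, plus strand): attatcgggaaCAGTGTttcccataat
The pattern was found in a 5′ UTR of 0.105% and in a 3′ UTR of 0.457% of 21877 coding genes. Fth1, Ftl1 and Slc40a1 each had 1 match and Tfrc had 4. The matches lay in 4 of 5 coding transcripts of Fth1, 1 of 2 of Ftl1, 1 of 4 of Slc40a1 and 1 of 3 of Tfrc. The same pattern was not found in Hamp, Steap3, Slc11a2, Slc11a1 or Ireb2. The search misses hairpins of any other form, so the lack of a match does not show that a gene lacks an element.

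The libraries held 40934540 to 80925478 counts each. All 8 macrophage markers were measured, and their summed level was 13520 to 27281 CPM (counts scaled to a common library total). Fibroblast markers summed to 118 to 282 CPM, neutrophil markers to at most 0.743 CPM and lymphocyte markers to at most 0.152 CPM. The macrophage sum was 21895 to 26183 CPM in PBS, 16137 to 16844 CPM with LPS and 13520 to 13865 CPM with LPS/IFNγ, and its part in the results below was not tested. PBS replicate 3 stood apart from the other PBS libraries in a way that followed transcript length. Its log2 difference from them correlated with log2 exonic length at r = -0.57 across 10102 genes, as a description. The median difference was 1.77 over 190 genes of at most 1000 bases and -0.66 over 4585 genes of at least 5000 bases. Against the other dsHMGB1 libraries, dsHMGB1 replicates 1 and 2 also showed a length trend, at r = -0.60 and 0.56. Their median differences were smaller in size, at 0.38 and -0.29 over the same 190 genes. For the members, the level in PBS replicate 3 divided by the mean of the other PBS libraries was 3.76 for Fth1, 3.32 for Ftl1 and 2.46 for Hamp. It was 0.396 for Ireb2, 0.441 for Tfrc, 0.520 for Slc40a1, 0.752 for Steap3, 0.830 for Slc11a1 and 0.942 for Slc11a2. Results for the members are therefore given with all libraries and, where the reading changed, also from a fit without PBS replicate 3, which was chosen after the data were seen. For the other genes that fit is given only for some, so their sizes against PBS can rest in part on PBS replicate 3. Scaling by library totals is also given only for some genes. It moved the median of all genes against PBS downward with dsHMGB1, LPS and LPS/IFNγ. Small changes against PBS can therefore depend on the scaling.

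Levels are given below as DESeq2-normalized counts, fold changes are DESeq2 log2 fold changes ± SE, and a gene was called when edgeR's Benjamini-Hochberg adjusted p over all tested genes was under 0.05. "Higher" and "lower" calls below are relative to the second condition named. Per kilobase of exon, the mean normalized level in PBS without replicate 3 ran from 280328 for Fth1 and 77049 for Ftl1 through 4108 for Slc11a1, 1173 for Tfrc, 771 for Slc40a1, 724 for Slc11a2 and 239 for Ireb2 to 2.36 for Hamp. The ferritin chains thus stood far above every transporter in resting cells, and hepcidin stood below all of the other members.

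Compared with PBS, frHMGB1 had 1 of the 9 members called higher and none lower by edgeR, where 1.31% of all tested genes were higher and 5.69% lower. At an unadjusted p under 0.05 edgeR gave 2 members, and DESeq2 called 2, both higher. dsHMGB1 had 3 members higher and 3 lower, against 23.3% and 24.2% of all genes. LPS had 3 higher and 4 lower, against 26.7% and 36.2%. LPS/IFNγ had 3 higher and 5 lower, against 29% and 31.2%. Hamp is counted among the higher with LPS and LPS/IFNγ, the conditions through which it passed the filter. In the fit without PBS replicate 3, frHMGB1 had 3 members higher and 1 lower (8.41% and 9.09% of all genes) and dsHMGB1 had 4 and 3 (29.8% and 29%). LPS then had 4 and 5 (32.9% and 38.3%) and LPS/IFNγ had 3 and 6 (33.3% and 34.4%). By the fold cut-off of the study, a log2 change beyond 2 in size and without a test, no member passed with frHMGB1 (0.609% of all genes passed upward and 6.83% downward). Slc40a1 and Steap3 passed downward with dsHMGB1, LPS and LPS/IFNγ, Hamp passed upward with LPS and LPS/IFNγ, and Ftl1 passed downward with LPS/IFNγ when PBS replicate 3 was included. Of all genes, 8.43% passed upward and 4.76% downward with dsHMGB1, 10.9% and 14% with LPS, and 12.1% and 9.69% with LPS/IFNγ.

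**Figure D1:**
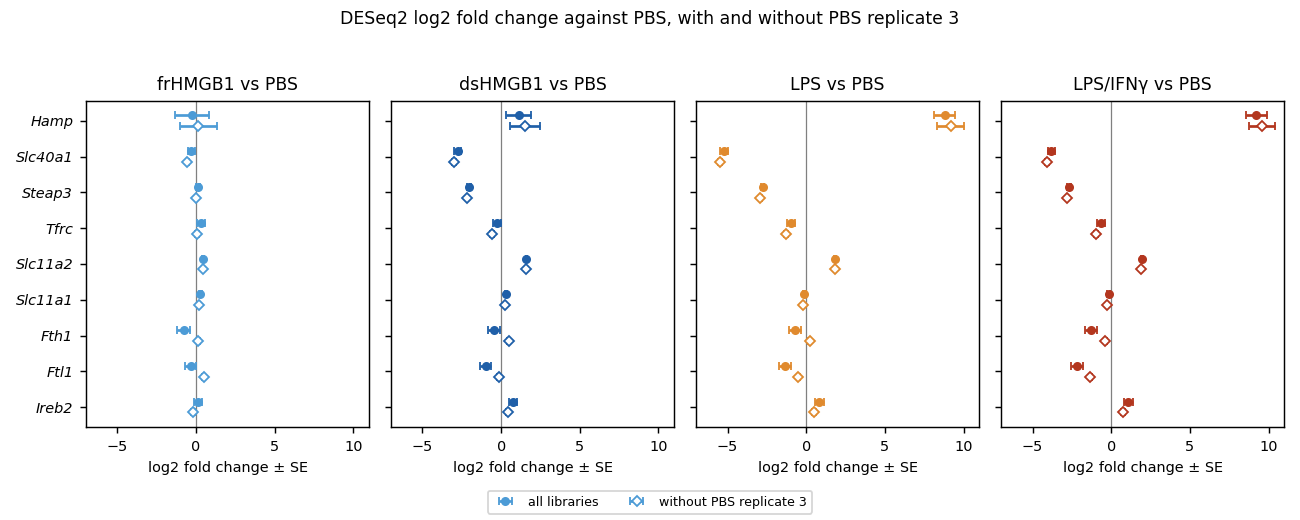
DESeq2 log2 fold change of the 9 members against PBS for frHMGB1, dsHMGB1, LPS and LPS/IFNγ, with bars of ± SE, with all libraries and without PBS replicate 3. Hamp lies near 9 with LPS and LPS/IFNγ, Slc40a1 reaches -5.22 with LPS, and the ferritin genes Fth1 and Ftl1 move by the largest amounts when PBS replicate 3 is left out.

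Hamp encodes hepcidin (ENSMUSG00000050440, chr7:30942368-30944032, minus strand, GRCm38). Its transcript was nearly absent in 3 of the 5 conditions and present in the other 2. Normalized counts were 0.646, 1.26 and 2.34 in PBS, and 3.21, 0 and 0 in frHMGB1. With dsHMGB1 they were 1.78, 2.93 and 3.36. These libraries held 5, 3 and 10 Hamp counts in all per condition, close to the limit of detection at this depth. With LPS the normalized counts were 629.5, 492 and 556. With LPS/IFNγ they were 748, 762 and 718. Every LPS and LPS/IFNγ library lay above every PBS, frHMGB1 and dsHMGB1 library, with no overlap.

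From summed counts, Hamp was 272-fold higher with LPS than in PBS (95% interval 116 to 840, counting error only, from 1194 against 5 counts). With LPS/IFNγ it was 361-fold higher (155 to 1114, from 2215 counts). The fitted log2 differences were 8.80 ± 0.66 and 9.21 ± 0.66. Hamp entered the test only through its LPS and LPS/IFNγ libraries, so it had to differ there, and its differences from them are given as a description with no test. dsHMGB1 against PBS was not called for Hamp (log2 1.11 ± 0.80, edgeR adjusted p = 0.228), and the counting ratio of 1.66 had an interval from 0.517 to 6.19. Hamp was 164-fold higher with LPS than with dsHMGB1 (89.0 to 343) and 218-fold higher with LPS/IFNγ than with dsHMGB1 (118 to 455). LPS/IFNγ exceeded LPS by 0.41 ± 0.15 on the log2 scale, which was not called with all libraries (edgeR adjusted p = 0.224) and was called without PBS replicate 3 (adjusted p = 0.0264). Hamp in dsHMGB1 against frHMGB1 was not called (adjusted p = 0.197), but was called without frHMGB1 replicate 1 (edgeR adjusted p = 0.0130), the library that held all 3 frHMGB1 counts.

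Hepatocytes are the main source of hepcidin in the body. The 5 hepatocyte markers together reached at most 0.161 CPM with LPS and 0.277 CPM with LPS/IFNγ, and up to 0.725 CPM in PBS. Ttr was at 0 in all 15 libraries. Alb was at 0 outside LPS and had 4 counts with LPS, at most 0.0789 CPM in a library. Ahsg had 2 counts over all libraries. The part of these markers in the Hamp values was not tested.

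The copy Hamp2 (chr7:30922372-30924681) had 2 counts in PBS, none in frHMGB1 or dsHMGB1, 10 with LPS and 36 with LPS/IFNγ. Its longest coding transcript was 89.0% identical to that of Hamp, so reads could be assigned to either gene and the Hamp2 values are uncertain. Usf2, the gene next to Hamp on the other side, encodes a basic helix-loop-helix transcription factor. Usf2 had 3975, 3968 and 8359 normalized counts in PBS and 5095, 4793 and 4758 with frHMGB1. They were 2504, 2212 and 2303 with dsHMGB1, 2781, 2805 and 3107 with LPS, and 2803, 2664 and 2756 with LPS/IFNγ. All dsHMGB1, LPS and LPS/IFNγ values of Usf2 lay below all PBS values, and dsHMGB1 was the lowest. Usf2 fell, with log2 changes of -1.22 with dsHMGB1, -0.91 with LPS and -0.99 with LPS/IFNγ (-0.77, -0.46 and -0.54 without PBS replicate 3, all called).

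**Figure D2:**
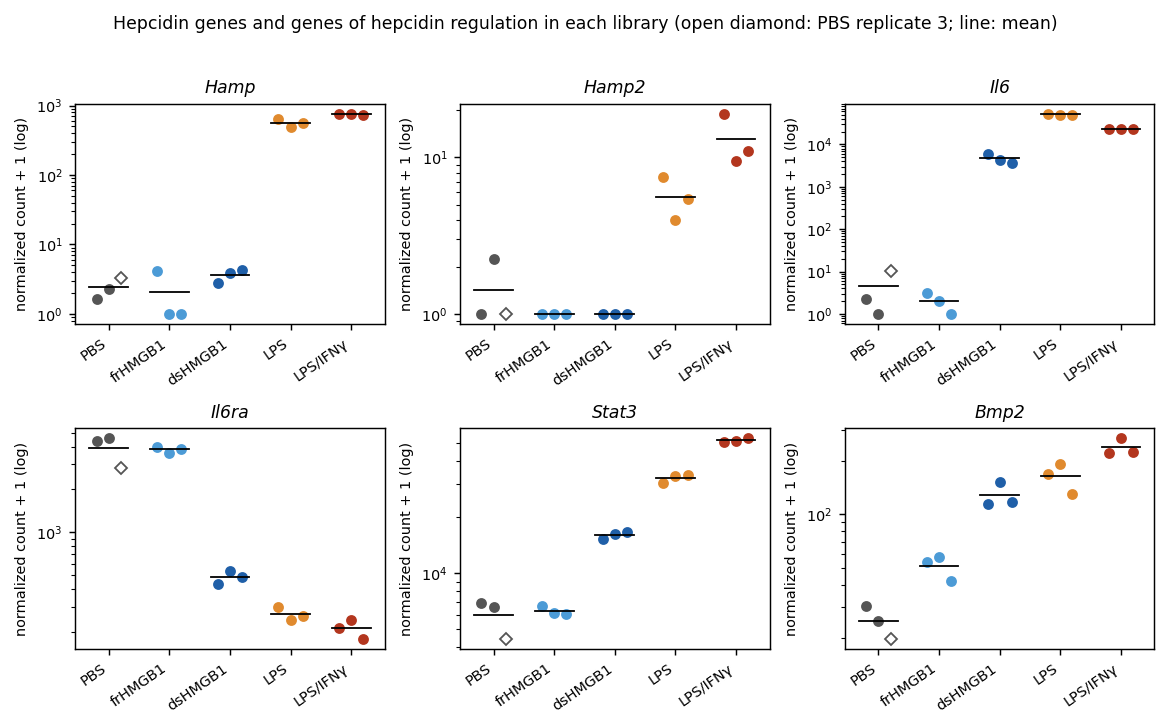
Normalized count plus 1 (log axis) of Hamp and of genes that regulate it in each library, by condition, with the line at the mean and PBS replicate 3 as an open diamond. Il6 is high with dsHMGB1, LPS and LPS/IFNγ, whereas Hamp is high with LPS and LPS/IFNγ and stays at 0 to 3.36 normalized counts in the other conditions.

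Of 22 listed regulators of hepcidin 17 were tested, and 1 was called higher with frHMGB1, against 1.31% of all genes. With dsHMGB1 5 were higher and 6 lower, against 23.3% and 24.2% of all genes. With LPS it was 5 and 6, against 26.7% and 36.2%, and with LPS/IFNγ 7 and 5, against 29% and 31.2%. The shares of the 17 regulators called higher were 29.4%, 29.4% and 41.2% in these 3 comparisons and the shares called lower 35.3%, 35.3% and 29.4%. Il6, the cytokine that induces hepcidin in inflammation, had normalized counts of 1.29, 0 and 9.37 in PBS. They were 6012, 4274 and 3721 with dsHMGB1, 53215, 50323 and 49125 with LPS, and 23039, 22898 and 23124 with LPS/IFNγ. Il6 was called in each of these 3 comparisons with PBS. It passed the filter on low counts only through these 3 conditions, so it had to differ there and the calls are a description. Il6 was 8.75-fold higher with LPS than with dsHMGB1 from summed counts (8.61 to 8.89).

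Stat3, the transcription factor downstream of IL-6, rose by 1.42 ± 0.14 with dsHMGB1, 2.44 ± 0.14 with LPS and 3.11 ± 0.14 with LPS/IFNγ on the log2 scale. Il6ra, the IL-6-binding receptor chain, moved the other way in the same cells. It had 4405, 4569 and 2850.3 normalized counts in PBS, 432, 533 and 486 with dsHMGB1, and 295, 241 and 256 with LPS. Il6ra fell, with log2 changes of -3.03, -3.90 and -4.23 with dsHMGB1, LPS and LPS/IFNγ. On the BMP side, the ligand Bmp2 rose by 1.03 with frHMGB1, 2.38 with dsHMGB1, 2.74 with LPS and 3.28 with LPS/IFNγ. The receptor Acvr1 rose by 2.10 with dsHMGB1, 2.58 with LPS and 3.09 with LPS/IFNγ. Its normalized counts in PBS were 857, 908 and 186, and the last, PBS replicate 3, adds to the size of these rises. Bmp2 levels stayed low, at 18.7 to 29.1 normalized counts in PBS and 129 to 191 with LPS.

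**Figure D3:**
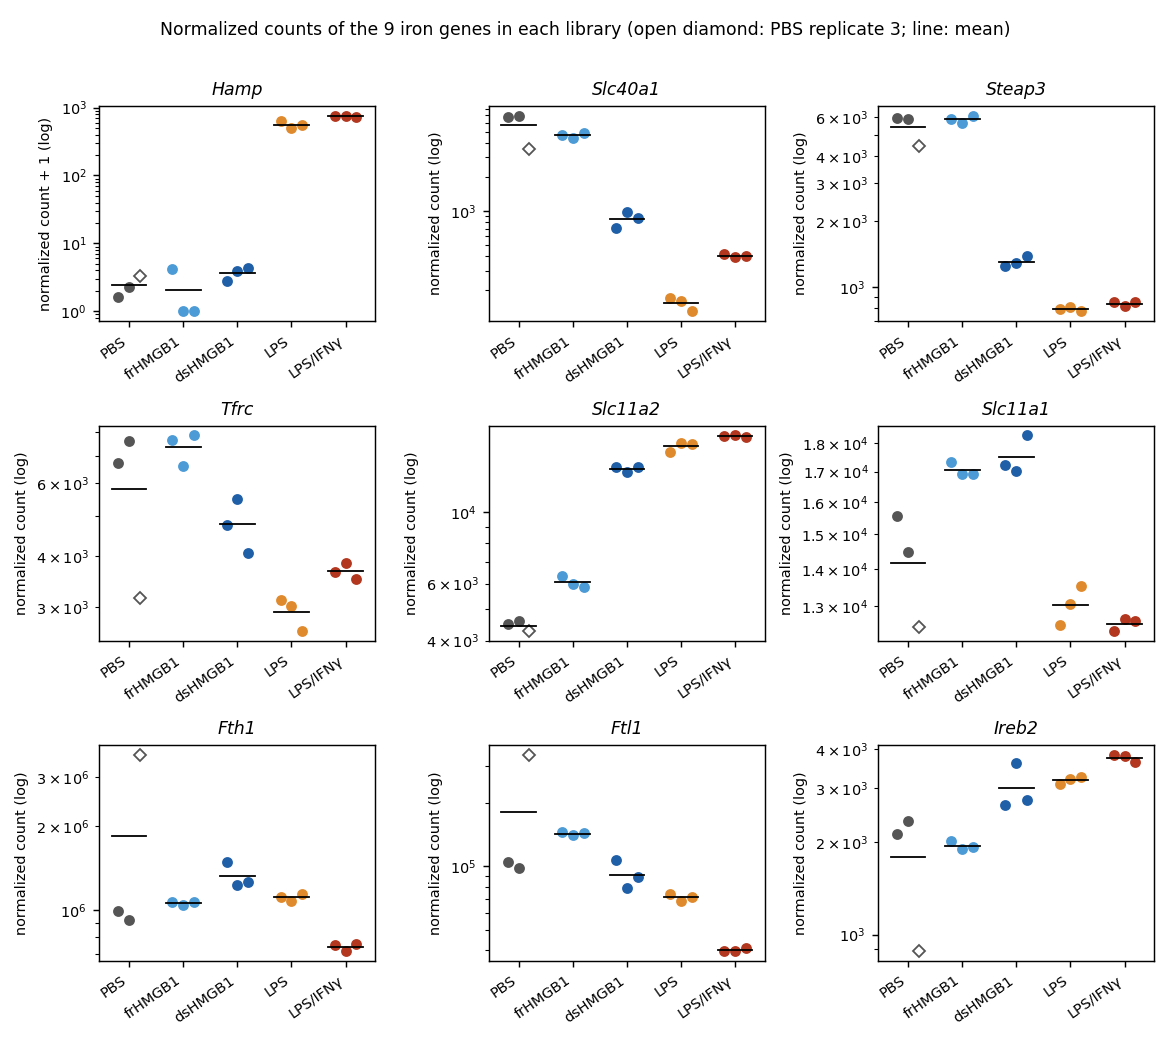
Normalized counts of each of the 9 members in every library by condition, with the line at the mean and PBS replicate 3 as an open diamond; Hamp is drawn as normalized count plus 1 on a log axis. Slc40a1 and Steap3 drop in steps from PBS and frHMGB1 to dsHMGB1 and further with LPS, while Slc11a2 rises along the same order.

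Slc40a1 encodes ferroportin (chr1:45908068-45926523, minus strand), which releases iron to plasma and is the target of hepcidin. Its normalized counts were 6715, 6984 and 3560.2 in PBS and 4722, 4396 and 4861 in frHMGB1. They were 706, 979 and 867 with dsHMGB1. They were 172, 161 and 131 with LPS and 417, 397 and 404 with LPS/IFNγ. The libraries of dsHMGB1, LPS and LPS/IFNγ did not overlap with PBS or with each other. In bulk RNA, fewer cells with a transcript and less of it per cell cannot be told apart.

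Slc40a1 fell in all 3 of these conditions. The log2 change was -2.76 ± 0.23 with dsHMGB1 (edgeR adjusted p = 4.25e-07), -5.22 ± 0.24 with LPS (1.33e-09) and -3.83 ± 0.23 with LPS/IFNγ (1.41e-08). LPS was the lowest condition. Slc40a1 was higher with dsHMGB1 than with LPS by 2.46 (edgeR adjusted p = 7.86e-06) and higher with LPS/IFNγ than with LPS by 1.39 (adjusted p = 0.000601). For frHMGB1 the difference from PBS was -0.30 ± 0.23 and not called (edgeR adjusted p = 0.553). Without PBS replicate 3 it was -0.55 ± 0.11 and called lower (adjusted p = 0.000615). With dsHMGB1, Slc40a1 was lower than in PBS while Hamp was not called. With LPS/IFNγ, Slc40a1 was higher than with LPS and the mean of Hamp was 743 ± 22.2 against 559 ± 69.0 normalized counts (SD, n = 3).

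Iron leaving through ferroportin is oxidised by the copper enzymes ceruloplasmin (Cp) and hephaestin (Heph). Cp had 178, 195 and 111 normalized counts in PBS, 2379.9, 2767 and 2599 with dsHMGB1, 6496, 6564 and 6689 with LPS, and 2029, 1726 and 1785 with LPS/IFNγ. Cp was thus highest with LPS, where Slc40a1 was lowest, and it rose by 3.98 with dsHMGB1, 5.33 with LPS and 3.49 with LPS/IFNγ. Heph was at low counts and was called in none of these comparisons (edgeR adjusted p = 0.974, 0.934 and 0.915).

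Tfrc encodes the transferrin receptor (chr16:32608920-32632794, plus strand), through which cells take up transferrin-bound iron. Tfrc was measured at normalized counts of 6713, 7598 and 3157 in PBS and 7640.2, 6620.2 and 7849 with frHMGB1. They were 4742, 5502 and 4074 with dsHMGB1, 3126, 3014 and 2623 with LPS, and 3655, 3839 and 3504 with LPS/IFNγ. PBS replicate 3 lay below every dsHMGB1 and LPS/IFNγ library and just above LPS, whereas the other PBS libraries lay above all of these. With all libraries Tfrc fell with LPS (log2 -0.996 ± 0.257, edgeR adjusted p = 0.00254) and with LPS/IFNγ (-0.67, adjusted p = 0.0273), and was not called with dsHMGB1 (log2 -0.29, adjusted p = 0.330). All 3 were called without PBS replicate 3, at -0.59, -1.30 and -0.98. The LPS/IFNγ call was lost without PBS replicate 1, PBS replicate 2 or any LPS/IFNγ replicate (edgeR adjusted p = 0.0524 to 0.137). Erythroid cells express Tfrc strongly, and the 8 erythroid markers together reached at most 2.03 CPM, with Hbb-bs, Hba-a1 and Hba-a2 at 0 in every library.

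Steap3 is the endosomal ferrireductase that reduces iron after transferrin uptake (chr1:120190757-120272705, minus strand). Steap3 had normalized counts of 5940.2, 5913 and 4455 in PBS and 5904, 5647 and 6116 with frHMGB1. They were 1252, 1291 and 1387 with dsHMGB1, 792, 813 and 775 with LPS, and 853, 819 and 851 with LPS/IFNγ. The dsHMGB1 libraries lay between the PBS and LPS libraries without overlap. Steap3 fell 4.15-fold with dsHMGB1 (log2 -2.05 ± 0.11, edgeR adjusted p = 1.36e-08), 6.86-fold with LPS (adjusted p = 4.26e-10) and 6.47-fold with LPS/IFNγ (adjusted p = 5.81e-10). It was higher with dsHMGB1 than with LPS by 0.72 (edgeR adjusted p = 0.00041). The difference between LPS/IFNγ and LPS was 0.08 and not called (adjusted p = 0.539).

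Slc11a2 encodes DMT1 (chr15:100387898-100425072, minus strand), which carries ferrous iron across endosomal and plasma membranes. With all libraries it was the one member called in all 4 comparisons with PBS. Without PBS replicate 3, Slc40a1 and Slc11a1 were called in all 4 as well. Normalized counts of Slc11a2 were 4488, 4589.7 and 4277 in PBS and 6318, 6001 and 5862 with frHMGB1. They were 13743, 13302 and 13736 with dsHMGB1, 15277, 16305 and 16164 with LPS, and 17142, 17229 and 17082 with LPS/IFNγ. No library of one of these conditions overlapped with those of another. Slc11a2 rose 1.36-fold with frHMGB1 (log2 0.44 ± 0.05, edgeR adjusted p = 0.00211), 3.05-fold with dsHMGB1 (adjusted p = 1.71e-09), 3.57-fold with LPS (3.69e-10) and 3.85-fold with LPS/IFNγ (1.63e-10). The frHMGB1 call was lost when the 2 conditions were fitted alone (edgeR adjusted p = 0.187). Slc11a2 was lower with dsHMGB1 than with LPS/IFNγ by 0.34 (edgeR adjusted p = 0.00601), and dsHMGB1 against LPS was not called (log2 -0.23, adjusted p = 0.123). PBS replicate 3 was at 0.942 of the other PBS libraries for Slc11a2, and the gene kept its direction in all 4 comparisons with PBS when libraries were scaled by their totals. Scaled so, dsHMGB1 differed from LPS by 0.11 and from LPS/IFNγ by -0.0123, and the call against LPS/IFNγ was lost (edgeR adjusted p = 0.941).

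Slc11a1 encodes NRAMP1 (chr1:74375195-74386062, plus strand), the metal transporter of the phagosome of macrophages. Normalized counts of Slc11a1 were 15553, 14489 and 12462 in PBS, 17321, 16914 and 16929 with frHMGB1, and 17229, 17004 and 18271 with dsHMGB1. They were 12525, 13051 and 13531 with LPS and 12369, 12679.5 and 12626 with LPS/IFNγ. On this scale changes were small and both HMGB1 conditions lay above PBS. Slc11a1 rose by 0.30 with dsHMGB1 (edgeR adjusted p = 0.0265) and was not called with frHMGB1 (log2 0.27, adjusted p = 0.134), LPS (-0.12, adjusted p = 0.114) or LPS/IFNγ (-0.17, adjusted p = 0.0889). In the fit without PBS replicate 3, frHMGB1 was called higher and LPS and LPS/IFNγ lower. It was higher with dsHMGB1 than with LPS by 0.43 (edgeR adjusted p = 0.00275). The dsHMGB1 call was lost without dsHMGB1 replicate 3, and frHMGB1 was called without PBS replicate 1. Scaled by library totals, the direction for dsHMGB1 against PBS turned to -0.0696. So scaled, Slc11a1 was called lower with LPS (edgeR log2 -0.83, adjusted p = 8.01e-05) and with LPS/IFNγ (-0.87, adjusted p = 5.18e-05). The sizes and calls of Slc11a1 against PBS thus depended on the scaling.

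Of 10 other listed uptake and endosomal genes 9 were tested. With dsHMGB1 4 were called higher and 2 lower (44.4% and 22.2%, against 23.3% and 24.2% of all genes). With LPS and with LPS/IFNγ 5 were higher and 3 lower (55.6% and 33.3%, against 26.7% and 36.2% and against 29% and 31.2% of all genes), and with frHMGB1 1 was higher. Slc39a14 (ZIP14), which imports iron not bound to transferrin, had 575, 594 and 353 normalized counts in PBS, 5212, 5589.8 and 5399 with dsHMGB1, and 7341, 7616 and 8597 with LPS. It rose by 3.41, 3.95 and 2.69 with dsHMGB1, LPS and LPS/IFNγ. The related importer Slc39a8 (ZIP8) separated dsHMGB1 from LPS. Its counts were 548, 605 and 356 in PBS, 598, 656 and 641 with dsHMGB1, and 3724, 3273 and 3203 with LPS. Slc39a8 was not called with dsHMGB1 against PBS (log2 0.32, edgeR adjusted p = 0.158) and was lower with dsHMGB1 than with LPS by 2.43 (adjusted p = 8.01e-07).

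The metalloreductase genes related to Steap3 moved the other way from it. Steap2 rose by 1.50, 1.74 and 2.71 with dsHMGB1, LPS and LPS/IFNγ. Steap4 had no counts in PBS or frHMGB1, and 528, 1038 and 2164 counts in the libraries of dsHMGB1, LPS and LPS/IFNγ. Against a floor of 3 counts over the PBS group, Steap4 was at least 146-fold higher with dsHMGB1, 395-fold with LPS and 588-fold with LPS/IFNγ. Steap4 passed the filter on low counts only through these conditions, so it had to be higher there. Trf, the gene of transferrin itself, was lower by -0.31 with dsHMGB1, -0.50 with LPS and -0.54 with LPS/IFNγ. Without PBS replicate 3 the Trf differences were -0.19, -0.38 and -0.43, all called.

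**Figure D4:**
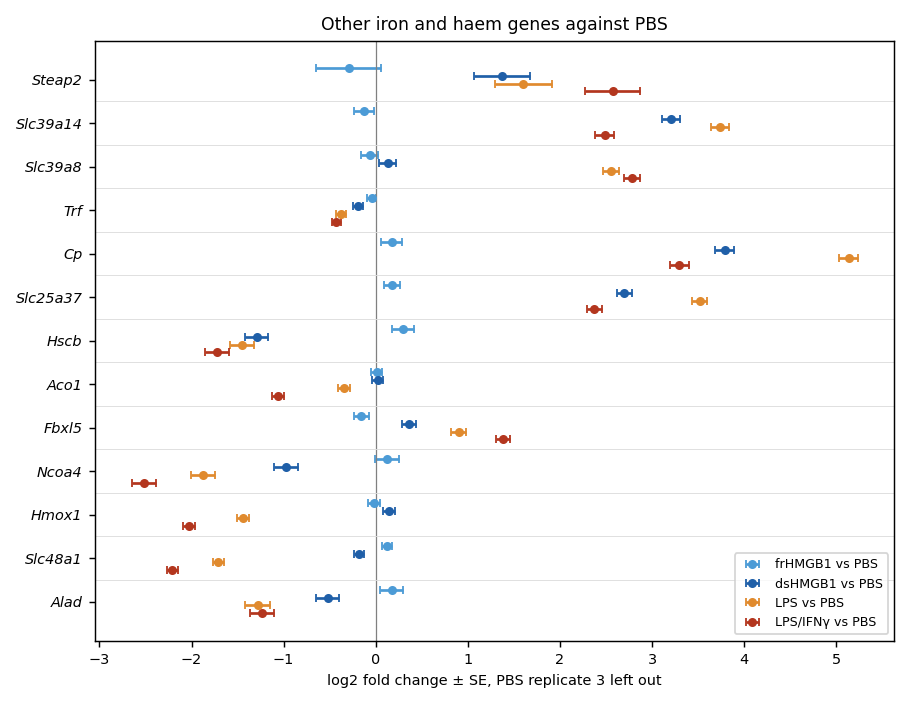
DESeq2 log2 fold change against PBS, with bars of ± SE, of other iron genes in a fit without PBS replicate 3. Slc39a14, Slc25a37 and Cp are higher with dsHMGB1, LPS and LPS/IFNγ, whereas Hmox1 and Slc48a1 are lower with LPS and LPS/IFNγ by 1.44 to 2.21 and differ from PBS by 0.15 and -0.18 with dsHMGB1.

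Fth1 encodes the ferritin heavy chain, which oxidises iron for storage (chr19:9980598-9985098, plus strand). It was among the most abundant transcripts in these cells, with 0.981% to 6.77% of the counts of a library. Its normalized counts were 996756, 922557 and 3605967 in PBS and 1075907, 1046349.7 and 1075139 with frHMGB1. They were 1496489, 1232044 and 1262419 with dsHMGB1, 1116785, 1083575 and 1143188 with LPS, and 748779, 715409 and 758635 with LPS/IFNγ. PBS replicate 3 was above every other library, and without it the PBS libraries lay below frHMGB1, dsHMGB1 and LPS and above LPS/IFNγ.

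On this scale PBS replicate 3 decided the direction of Fth1 against PBS with frHMGB1, dsHMGB1 and LPS, but not with LPS/IFNγ. With all libraries Fth1 was called lower with LPS/IFNγ (log2 -1.31 ± 0.39, edgeR adjusted p = 0.0068) and was not called with frHMGB1 (-0.79, adjusted p = 0.337), dsHMGB1 (-0.47, adjusted p = 0.324) or LPS (-0.72, adjusted p = 0.0824), where leaving out PBS replicate 1 or 2 in place of replicate 3 gave a call downward. Without it, Fth1 was higher with dsHMGB1 by 0.47 ± 0.08 (edgeR adjusted p = 2.22e-05) and with LPS by 0.21 (adjusted p = 0.0445), and lower with LPS/IFNγ by -0.38 (adjusted p = 1.01e-05). frHMGB1 was at 0.15 and not called (adjusted p = 0.155). Scaling by library totals moved the median of all genes with LPS by -0.70 and turned the LPS value without PBS replicate 3 to -0.58. It left 0.00787 for dsHMGB1 against PBS without PBS replicate 3 and -0.0844 for dsHMGB1 against frHMGB1, so the higher Fth1 with dsHMGB1 depended on the scaling. Comparisons between stimulated conditions held no PBS library. In the fit without PBS replicate 3, Fth1 was lower with LPS/IFNγ than with LPS by -0.59 (edgeR adjusted p = 1.88e-07) and higher with dsHMGB1 than with frHMGB1 by 0.31 (adjusted p = 0.000339). With all libraries, neither was called (edgeR adjusted p = 0.301 and 0.520).

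Ftl1 encodes the ferritin light chain, which favours the growth of the iron core (chr7:45457944-45459884, minus strand). Its normalized counts were 105403, 98369.6 and 338548 in PBS and 145133, 140800.3 and 143563 with frHMGB1. They were 106742, 79139 and 88713 with dsHMGB1, 74191, 68415 and 71219 with LPS, and 39613, 39680.2 and 41005 with LPS/IFNγ. LPS and LPS/IFNγ lay below all PBS libraries. Ftl1 fell with LPS (log2 -1.34, edgeR adjusted p = 0.00277) and with LPS/IFNγ (-2.17, adjusted p = 9.05e-05). Both were called without PBS replicate 3 as well, at the smaller sizes of -0.52 (adjusted p = 8.29e-06) and -1.36 (3.64e-11). The dsHMGB1 call with all libraries (log2 -0.98, edgeR adjusted p = 0.0282) was lost without PBS replicate 3 (-0.16, adjusted p = 0.0645), and also without dsHMGB1 replicate 2 or 3 (edgeR adjusted p = 0.0974 and 0.0781). frHMGB1 turned from -0.34, not called (edgeR adjusted p = 0.722), to 0.49, called higher (adjusted p = 0.00068).

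The ratio of the ferritin chains within a library does not depend on scaling. It leaves out reads on the Ftl1 copies, whose share differed between conditions as given below, and the ratio with copies added was not taken. Fth1 counts divided by Ftl1 counts were 9.46, 9.38 and 10.7 in PBS, 7.41, 7.43 and 7.49 with frHMGB1, and 14.0, 15.6 and 14.2 with dsHMGB1. They were 15.1, 15.8 and 16.1 with LPS and 18.9, 18.0 and 18.5 with LPS/IFNγ. The ratio was thus lowest with frHMGB1 and highest with LPS/IFNγ, PBS replicate 3 was the highest of its group, and dsHMGB1 overlapped only with LPS. The copies left out held 10.9% to 11.4% of Ftl1 family counts with dsHMGB1 and 1.96% to 2.01% with LPS. Whether that overlap remains with copies added was not tested. The ratio lay above PBS in every stimulated condition except frHMGB1, as a description without a test.

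**Figure D5:**
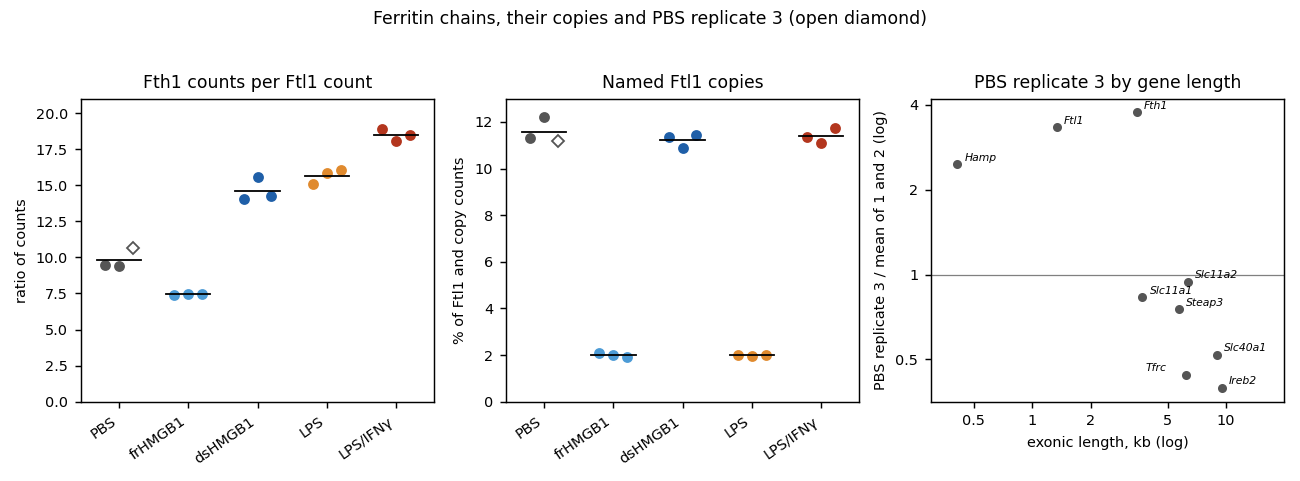
Left, Fth1 counts divided by Ftl1 counts in each library by condition; middle, counts of 3 Ftl1 copies as a percent of Ftl1 and copies together; right, the level in PBS replicate 3 divided by the mean of the other PBS libraries against exonic length in kilobases (both axes log) for the members. The ratio runs from 7.41 with frHMGB1 to 18.9 with LPS/IFNγ, the copy percentage splits the conditions near 2% and near 11%, and Fth1 and Ftl1 lie highest in the right panel.

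Ferritin genes have processed copies elsewhere in the genome, and reads can fall on either. The 3 Ftl1 copies held 11.2% to 12.2% of the Ftl1 family counts in PBS, 10.9% to 11.4% with dsHMGB1 and 11.1% to 11.7% with LPS/IFNγ. They held 1.93% to 2.11% with frHMGB1 and 1.96% to 2.01% with LPS. Processed pseudogenes as a class followed the same split, at 0.684% to 1.49% of all counts in PBS, dsHMGB1 and LPS/IFNγ libraries and 0.481% to 0.560% in frHMGB1 and LPS libraries. Condition and this split cannot be told apart. With the copies added to Ftl1, and PBS replicate 3 left out, the edgeR log2 differences from PBS were 0.33 for frHMGB1, -0.20 for dsHMGB1, -0.72 for LPS and -1.42 for LPS/IFNγ. The Fth1 copies held at most 0.0355% of the Fth1 family.

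Ireb2 encodes iron regulatory protein 2, which binds iron-responsive elements when iron is low (chr9:54863789-54912530, plus strand). Normalized counts of Ireb2 were 2119, 2347 and 884 in PBS and 2011, 1894 and 1929.6 with frHMGB1. They were 2641, 3610.3 and 2730.3 with dsHMGB1, 3097, 3192 and 3242 with LPS, and 3831, 3804 and 3637 with LPS/IFNγ. All dsHMGB1, LPS and LPS/IFNγ libraries lay above all PBS libraries. Ireb2 rose by 0.75 with dsHMGB1 (edgeR adjusted p = 0.0440), 0.83 with LPS (adjusted p = 0.0281) and 1.07 with LPS/IFNγ (adjusted p = 0.00527). The sizes without PBS replicate 3 were 0.42, 0.50 and 0.74, all called. The dsHMGB1 call was lost without any one of its replicates (edgeR adjusted p = 0.0513 to 0.164), and the LPS call without LPS replicate 3 (adjusted p = 0.0523). Scaled by library totals and without PBS replicate 3, the 3 differences turned to -0.0399, -0.29 and -0.0358, so the direction of Ireb2 depended on the scaling.

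Of 7 other genes of iron sensing and ferritin handling 6 were tested, and edgeR called 0 with frHMGB1 (1 at an unadjusted p under 0.05, and 1 by DESeq2). With dsHMGB1 2 were higher and 1 lower (33.3% and 16.7%, against 23.3% and 24.2% of all genes). With LPS it was 2 and 2 (33.3% each, against 26.7% and 36.2%), and with LPS/IFNγ 3 and 3 (50% each, against 29% and 31.2%). Fbxl5, the ubiquitin ligase subunit that degrades iron regulatory proteins in iron-replete cells, rose by 0.59 with dsHMGB1, 1.13 with LPS and 1.61 with LPS/IFNγ. Without PBS replicate 3 the Fbxl5 differences were 0.36, 0.90 and 1.38, all called. In that setting, scaling by library totals moved the median of all genes by -0.46, -0.79 and -0.78. The size of the Fbxl5 rises, and with dsHMGB1 the direction, can therefore depend on the scaling. Aco1, iron regulatory protein 1, fell with LPS/IFNγ (log2 -0.77). Its normalized counts in PBS were 4572, 4447 and 2077, and the last, PBS replicate 3, lessens the size of this fall. Ncoa4, the receptor that delivers ferritin for breakdown, had 7799.6, 8488 and 1063 normalized counts in PBS, 3169.9, 4791 and 4494 with dsHMGB1, 2158, 2315 and 2241 with LPS, and 1392, 1506 and 1387 with LPS/IFNγ. PBS replicate 3 lay below every other Ncoa4 library, and the other PBS libraries lay above dsHMGB1, LPS and LPS/IFNγ. Ncoa4 fell with LPS (log2 -1.37) and LPS/IFNγ (-2.02), and its changes without PBS replicate 3 were -0.97, -1.87 and -2.52 with dsHMGB1, LPS and LPS/IFNγ.

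Of 13 genes of haem uptake, transport and breakdown, 1 was called higher and 4 lower with dsHMGB1 (7.69% and 30.8%, against 23.3% and 24.2% of all genes). With LPS it was 1 and 6 (7.69% and 46.2%, against 26.7% and 36.2%), and with LPS/IFNγ 1 and 9 (7.69% and 69.2%, against 29% and 31.2%). Hmox1, haem oxygenase 1, which frees iron from haem, had 14647, 13523 and 16851 normalized counts in PBS, 16544, 14470.0 and 15853 with dsHMGB1, 5394, 5045 and 5209.6 with LPS, and 3379, 3517 and 3512 with LPS/IFNγ. On this scale the dsHMGB1 and PBS libraries overlapped. Hmox1 was lower with LPS by -1.52 and with LPS/IFNγ by -2.11, and higher with dsHMGB1 than with LPS by 1.58 ± 0.09 (edgeR adjusted p = 3.68e-08). Slc48a1, which moves haem out of the phagolysosome, fell with LPS (log2 -1.69) and LPS/IFNγ (-2.18). It was not called with dsHMGB1 (log2 -0.16, edgeR adjusted p = 0.0844). Scaling by library totals moved the median of all genes with dsHMGB1 against PBS by -0.37. How close Hmox1 and Slc48a1 with dsHMGB1 lay to PBS can therefore depend on the scaling.

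Of 9 genes of haem synthesis, Alas1, the rate-limiting enzyme, was the 1 called higher with dsHMGB1, LPS and LPS/IFNγ, by 0.54, 0.80 and 0.63. The other 8 were called lower with LPS and with LPS/IFNγ, and 5 of them with dsHMGB1. These are 88.9%, 88.9% and 55.6% of the 9 genes, where 36.2%, 31.2% and 24.2% of all genes were lower. Alad, an early enzyme of the pathway, fell with dsHMGB1, LPS and LPS/IFNγ (log2 -1.36, -2.11 and -2.07, and -0.52, -1.28 and -1.24 without PBS replicate 3). Of 12 mitochondrial iron genes, 4 were higher and 3 lower with dsHMGB1 (33.3% and 25.0%, against 23.3% and 24.2% of all genes). With LPS it was 5 and 5 (41.7% each, against 26.7% and 36.2%), and with LPS/IFNγ 3 and 7 (25.0% and 58.3%, against 29% and 31.2%). Slc25a37 (mitoferrin 1), the mitochondrial iron importer, had 698, 794 and 575 normalized counts in PBS and 4982, 5119 and 4455 with dsHMGB1. It had 8775, 8699 and 8274 with LPS and 3867, 3994 and 3797 with LPS/IFNγ. Slc25a37 rose by 2.81, 3.63 and 2.49. Hscb, a chaperone of iron-sulphur cluster assembly, fell with LPS as well as with dsHMGB1 (log2 -1.84) and LPS/IFNγ (-2.26). Its normalized counts in PBS were 797, 749 and 1856, and the last, PBS replicate 3, adds to the size of these falls.

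Lcn2 encodes lipocalin 2, which binds bacterial siderophores and so withholds iron. It had 0, 2 and 0 counts in the PBS libraries and 14, 7 and 3 counts with frHMGB1. Normalized counts were 195, 158 and 225 with dsHMGB1, 531, 525 and 599.9 with LPS, and 53.0, 40.0 and 41.1 with LPS/IFNγ. Lcn2 was called higher in all 4 comparisons with PBS, from a PBS total of 2 counts. Lcn2 passed the filter on low counts only through dsHMGB1, LPS and LPS/IFNγ, so its calls there are a description. It was lower with LPS/IFNγ than with LPS by -3.63 (edgeR adjusted p = 4.68e-06). Over all 79 other iron genes, 70 were tested. They include Il6, Lcn2 and Steap4, which passed the filter through the stimulated conditions where they were high. With frHMGB1 3 were higher and 0 lower (8 at an unadjusted p under 0.05, and 4 by DESeq2), against 1.31% and 5.69% of all genes. With dsHMGB1 it was 19 and 22 (27.1% and 31.4%, against 23.3% and 24.2%), with LPS 21 and 30 (30% and 42.9%, against 26.7% and 36.2%), and with LPS/IFNγ 22 and 36 (31.4% and 51.4%, against 29% and 31.2%). The median log2 differences from PBS were 0.07, -0.02, -0.18 and -0.32, beside -0.01, -0.10, -0.21 and -0.12 over all tested genes.

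Against LPS, dsHMGB1 had 4 members higher (Slc40a1, Steap3, Tfrc and Slc11a1) and 1 lower (Hamp), where 15.8% of all genes were higher and 10.6% lower. The Tfrc call was lost without any one of the 6 libraries (edgeR adjusted p = 0.0521 to 0.159). Against LPS/IFNγ, dsHMGB1 had 4 higher (Slc40a1, Steap3, Slc11a1 and Ftl1) and 2 lower (Hamp and Slc11a2), where 16.5% were higher and 16.7% lower. Hamp is counted as lower in both comparisons, here and below. It passed the filter only through LPS and LPS/IFNγ, so its place in these counts is a description and not a test. LPS/IFNγ against LPS had 1 member called, Slc40a1 higher, where 16.3% of genes were higher and 9.36% lower. dsHMGB1 against frHMGB1 had Slc11a2 higher and Slc40a1, Steap3 and Tfrc lower, where 27.7% were higher and 23.1% lower. Slc40a1 was lower with dsHMGB1 than with frHMGB1 by -2.45 (edgeR adjusted p = 1.23e-06) and Steap3 by -2.17 (adjusted p = 8.11e-09). The Tfrc call against frHMGB1 was lost without any one of the 6 libraries (edgeR adjusted p = 0.0525 to 0.153). More members were called in these comparisons when PBS replicate 3 was left out of the shared fit, as were more of all genes. dsHMGB1 against LPS then had 6 higher and 2 lower (25.6% and 23.3% of all genes), and dsHMGB1 against LPS/IFNγ had 6 and 3 (27.9% and 25.4%). LPS/IFNγ against LPS had 4 and 2 (25.1% and 24.3%), and dsHMGB1 against frHMGB1 had 3 and 4 (35.8% and 32.9%).

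The genes whose pattern was most like that of a member were found by Pearson r over the 15 libraries among 10102 other protein-coding genes, as a description. The libraries share their 5 conditions, so most of each r comes from differences between conditions. For Hamp they were Cdc42se1 (r = 0.990) and Tyro3 (0.985), and for Slc40a1 Soat1 (0.994) and Acot2 (0.992). For Steap3 they were Hdac5 (0.998) and Plekhg3 (0.997), and for Slc11a2 Nfkbie and Hcar2 (both 0.997). For Tfrc they were Slc16a7 (0.980) and Dnajc3 (0.971), for Slc11a1 Parvg (0.957) and Csf1r (0.948), and for Ireb2 Diaph2 (0.995) and Erbin (0.994). For Ftl1 they were Aldh3b1 (0.992) and Dpp3 (0.990). The partners of Fth1, BC004004 and Rpia, had r = 0.978 and 0.976 with all libraries and 0.920 and 0.925 without PBS replicate 3.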

How the data were processed

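RNA of 15 BMDM libraries (5 conditions, 3 libraries each) was made into poly(A)-selected, stranded libraries and sequenced as paired-end reads. The authors mapped the reads to GRCm38 with STAR, and the deposited values are raw counts per Ensembl gene and library. Which program counted the reads, and with which gene models, was not stated in the sources used here. Groups came from the sample labels, and the culture time was labelled 10 days where the methods give 8 to 9 days. Gene names and exonic lengths were taken from GENCODE M21 (51661 of 51763 identifiers matched).

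Genes were filtered with filterByExpr. All 15 libraries were fitted together in edgeR 4.0.16 (R 4.3.3; TMM, quasi-likelihood test, two-sided, Benjamini-Hochberg over all tested genes, threshold 0.05). Normalized counts and unshrunken log2 fold changes with SE came from DESeq2 1.42.0. The study itself ignored p-values, since its replicates were technical, and used a log2 cut-off of 2. Count ratios carry exact 95% intervals that cover counting error only. The fit was tested on simulated data. The genes named are the 9 members, fixed iron genes, and other listed iron genes called with a log2 change above 2 in size and a mean of at least 100 normalized counts. The members and lists were chosen with earlier results of these data known. Alternatives were DESeq2, other scalings and filters, protein-coding genes alone, the 2 conditions alone, ferritin copies added, a replicate block and leaving out each library. Some items are not reported here.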

Additional observations from a re-analysis of the deposited data

How the results depend on the processing

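Leaving out 1 library at a time gave these ranges of called members: 1 to 4 for frHMGB1, 3 to 7 for dsHMGB1, 6 to 9 for LPS and 7 to 9 for LPS/IFNγ against PBS, 4 to 8 for dsHMGB1 against LPS, 6 to 9 for dsHMGB1 against LPS/IFNγ, 1 to 6 for LPS/IFNγ against LPS, and 3 to 7 for dsHMGB1 against frHMGB1. For the other iron genes the ranges were 1 to 13, 32 to 51, 47 to 59, 51 to 58, 11 to 38, 22 to 53, 15 to 43 and 31 to 57 in the same order. The counts moved by over 1.5 times without PBS replicate 1 (2 members) or 3 (4 members) for frHMGB1, and without dsHMGB1 replicate 3 (3 members) for dsHMGB1. The other iron genes moved so without frHMGB1 replicate 1 or 2 (1 gene each) or PBS replicate 3 (13 genes) for frHMGB1 and, for dsHMGB1 against LPS, without LPS replicate 2 (11 genes). PBS replicate 3 left out of the shared fit also gave 8 members and 38 others for dsHMGB1 against LPS, 53 others for dsHMGB1 against LPS/IFNγ, 6 and 43 for LPS/IFNγ against LPS, and 7 members for dsHMGB1 against frHMGB1. With frHMGB1, edgeR called 0 members and 0 other iron genes when the 2 conditions were fitted alone, and 0 other iron genes when protein-coding genes alone were fitted. DESeq2 called 2 members for frHMGB1 and 2 for LPS/IFNγ against LPS. With the 2 conditions fitted alone, 3 members and 21 other iron genes were called for dsHMGB1 and 4 members for LPS against PBS. The same fit gave 37 other iron genes for dsHMGB1 against LPS, 49 for dsHMGB1 against LPS/IFNγ, 7 members and 45 others for LPS/IFNγ against LPS, and 7 members for dsHMGB1 against frHMGB1. With library totals in place of TMM and PBS replicate 3 left out, chosen after seeing the data, 3 members and 17 others were called for frHMGB1, 8 and 52 for dsHMGB1 against LPS, 55 others for dsHMGB1 against LPS/IFNγ, 7 and 42 for LPS/IFNγ against LPS, and 7 members for dsHMGB1 against frHMGB1.

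Directions turned as follows, as edgeR log2 differences. Leaving out 1 library gave -0.56 to 0.49 for Ftl1 with frHMGB1, -0.75 to 0.44 for Fth1 with dsHMGB1 and -1.05 to 0.16 for Fth1 with LPS, with the positive values all without PBS replicate 3. With copies added as well these were 0.33, 0.44 and 0.16, and Ftl1 was 0.43 with library totals. With library totals, Slc11a1 was -0.0696 for dsHMGB1 against PBS (-0.24 without PBS replicate 3) and -0.37 against frHMGB1 in both fits. With library totals and without PBS replicate 3, Ireb2 was -0.0399 with dsHMGB1, -0.29 with LPS, -0.0358 with LPS/IFNγ and 0.25 for dsHMGB1 against LPS. The cause was not tested. Library totals moved the median of all genes against PBS by -0.37 with dsHMGB1, -0.70 with LPS and -0.69 with LPS/IFNγ.

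Samples with the same replicate number correlated in their deviations at r = -0.38 to 0.37, over 0.1 in 1 of 24 pairs, so the numbers were not shown to pair the samples. The replicate block changed no member call, and the count of other iron genes called went from 51 to 51 with LPS, 58 to 56 with LPS/IFNγ and 41 to 38 with dsHMGB1. For Hamp the low counts outside LPS and LPS/IFNγ limit what could be detected.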
